A study of Mus musculus with 4 samples.

Results

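The genes described here encode the subunits of the proteasome, its assembly chaperones named in the same series and its activators. They were taken as every gene whose symbol on the array begins with Psma, Psmb, Psmc or Psmd, together with Psme1 to Psme4, and pseudogenes were left out. The rule matched 44 symbols, of which 43 had a probe set that names 1 gene. Psma4 is on the array only in probe sets that also name another gene, so it has no expression value here. Psmc3ip, a meiotic recombination factor that shares the letters of the rule and is no proteasome subunit, is given apart. That left 42 genes of the 22180 named in this way on the array, and 40 of them were tested, because Psma5 and Psmb11 lay under the floor (a mean over the arrays of at least 5.475 on the log2 scale, the median of all values, which 12959 genes reached).

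RNA came from LSK cells of the bone marrow (sorted as lacking lineage markers and carrying Sca-1 and c-Kit, a fraction enriched for hematopoietic stem and multipotent progenitor cells). The donors of all arrays were C57/B6 males, 4 months old. Ctrl and AMKO mice were each taken at day 0 (Basal, with no 5FU) and at day 8 after a single 150 mg/kg dose of 5FU, which makes 4 groups. 5FU is fluorouracil, a drug that blocks DNA synthesis, depletes cycling marrow cells and is used to bring stem cells into cycle. The labels do not spell out AMKO, which is used here as the name of a genotype, nor give the allele, any promoter that drives it or the number of mice behind an array. Each group was measured on 1 Affymetrix array, so no difference between 2 arrays has a replicate error or a test, and the precision is limited by the number of arrays. All values are on the log2 scale of the deposited table, and a difference of 0.585 is 1.5-fold.

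The proteasome degrades proteins that carry ubiquitin chains. Its core particle is a barrel of alpha rings, which form the gate, and beta rings, which carry the cutting sites. A regulatory particle caps the barrel. Its base holds the ATPases that unfold substrates, and its lid holds the enzyme that removes ubiquitin. In blood cells the catalytic beta subunits can be exchanged for immunoproteasome forms, which are induced by interferon and favour peptides for MHC class I. When proteasome capacity falls short, the transcription factor Nfe2l1 is known to induce most subunit genes together through antioxidant response elements in their promoters.

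RefSeq promoter windows of GRCm38.p6, from 250 bases before to 50 bases after a start, were available for 36 of 43 proteasome genes. These 43 are the 42 measured genes and Psma4, whose promoter needs no probe set, and do not count Psmc3ip. The 120 bases just upstream of the annotated start are printed, 5′ to 3′ on the gene's strand, for the constitutive catalytic gene Psmb5, for the 3 immunoproteasome genes, and for Psmd14 and Psmc4, whose differences after 5FU are among the larger ones described here. Psmb5 lies at chr14:54617996-54618115 on the minus strand, Psmb8 at chr17:34198075-34198194 on the plus strand and Psmb9 at chr17:34187331-34187450 on the minus strand. Psmb10 lies at chr8:105938393-105938512 on the minus strand, Psmd14 at chr2:61711574-61711693 on the plus strand and Psmc4 at chr7:28050093-28050212 on the minus strand. Capitals mark matches of TGANNNNGC, the core letters of an antioxidant response element, on either strand.
Psmb5: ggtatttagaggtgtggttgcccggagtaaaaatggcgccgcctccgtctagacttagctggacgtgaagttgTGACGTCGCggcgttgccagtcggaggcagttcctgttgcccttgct
Psmb8: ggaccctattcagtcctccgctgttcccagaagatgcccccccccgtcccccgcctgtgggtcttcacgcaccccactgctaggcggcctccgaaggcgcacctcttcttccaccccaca
Psmb9: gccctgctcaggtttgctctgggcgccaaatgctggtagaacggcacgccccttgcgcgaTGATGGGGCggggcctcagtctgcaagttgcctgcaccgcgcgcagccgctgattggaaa
Psmb10: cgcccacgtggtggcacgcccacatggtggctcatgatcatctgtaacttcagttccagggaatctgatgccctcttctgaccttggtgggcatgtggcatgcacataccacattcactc
Psmd14: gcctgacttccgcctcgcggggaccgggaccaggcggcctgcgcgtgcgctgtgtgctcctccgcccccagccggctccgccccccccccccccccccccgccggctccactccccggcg
Psmc4: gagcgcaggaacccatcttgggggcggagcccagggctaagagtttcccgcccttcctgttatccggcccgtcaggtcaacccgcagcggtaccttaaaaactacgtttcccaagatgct

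Of the 36 proteasome genes with a window, Psma4 included, 21 (58.3%) held TGANNNNGC on either strand in the full 300-base window, beside 45.0% of 27025 genes in the RefSeq table. The motif was in the windows of 4 of 4 matched core beta genes and of 2 of 3 immunoproteasome genes. The match of Psmb8 lay past the start and so outside the printed bases. Of the other matched genes, 4 of 7 core alpha, 3 of 8 base and 3 of 6 lid genes held the motif. So did 2 of 4 activators, 2 of 3 base assembly chaperones and 1 of 1 tissue-restricted form. The share in base genes lay below that of all genes. CCAAT was in 14 of the 36 genes (38.9%, all genes 41.1%). GGG followed after any 5 bases by CC, an NF-kappaB-like string, was in 20 (55.6%, all genes 53.5%). GAAA followed after any 2 bases by GAAA, the core letters of an interferon-stimulated response element, was in 4 of them (11.1%, all genes 3.99%) and in 0 of 3 immunoproteasome genes. Of 106 matches, 2 overlapped a match of another of these motifs. A match describes the letters of a window, and 0 matches say only that the letters are not in it.

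The arrays differed in more than the labelled factors. Medians of all values lay between 5.43 and 5.55. Ly6a, which encodes Sca-1, was not measured. Kit, the other sorted receptor, read 11.84 and 11.87 at day 0 (Ctrl, then AMKO, as in the pairs below) and 11.08 and 11.16 at day 8, so it was lower by 0.76 and 0.71. Of the 9 measured LSK and progenitor markers, 5 were at least 1.5-fold lower at day 8 and 3 higher in Ctrl, and 4 lower and 2 higher in AMKO. The stem cell markers Meis1 (-0.77 and -0.70), Gata2 (-1.02 and -0.63) and Procr (-1.64 and -0.70) were lower in both genotypes. Cd48, a marker of more mature progenitors, was higher by 4.97 and 4.34. On the Ctrl day 8 array, 11 of 11 mature neutrophil markers were at least 2-fold above Ctrl day 0, with a summed level (log2) of 14.53 against 8.69 to 9.01 on the other 3 arrays. B-lineage markers there summed to 12.35 against 9.05 to 9.19, granulocyte-monocyte progenitor markers to 12.61 against 9.0 to 9.18, and monocyte markers to 10.88 against 8.56 to 9.13. Skeletal muscle markers were highest on the Ctrl day 0 array, with a sum of 11.71 against 8.57 to 9.21. Xist, transcribed from the inactive X chromosome of females, was 7.65 on the Ctrl day 8 array and 3.97 to 4.41 on the others, although all mice were labelled male. The part of these differences in the proteasome values was not tested. The comparison of the AMKO arrays with each other uses neither of these 2 Ctrl arrays, but the LSK markers above differed by day within AMKO too. The cytotoxic cell gene Nkg7 (1.86 and 1.77) did so as well. It was the 1 tested gene of 7 T and NK cell markers, which had a median day difference of -0.05 in AMKO. In sorted bulk samples, a different mix of cells and a different amount of RNA per cell cannot be told apart.

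The first question of the design is what 5FU does to LSK cells. At day 8 most proteasome genes were higher than at day 0 in both genotypes, by moderate amounts. In Ctrl, 37 of 40 tested members lay above 0, with a median difference of 0.46, beside 50.6% of all tested genes and a median of 0.01. In AMKO, 39 of 40 lay above 0, with a median of 0.68, beside 53.7% and 0.05. Psma8, the testis form of an alpha subunit, was the exception in both genotypes.

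At least 1.5-fold higher at day 8 were 13 of 40 members in Ctrl (32.5%), beside 11.7% of all tested genes. In AMKO the count was 26 of 40 (65.0%), beside 16.2%. None of the 40 was 1.5-fold lower in Ctrl (all genes 11.7%), and Psma8 was the 1 such gene in AMKO (all genes 10.2%). Large differences were few. At least 2-fold higher were 4 members in Ctrl (all genes 4.61%) and 5 in AMKO (all genes 4.98%).

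For 36 of 40 tested members (90.0%), both day 8 arrays lay above both day 0 arrays, beside 33.4% of all tested genes. The exceptions were Psma3, Psmb10 and Psme4, whose groups overlapped or touched, and Psma8, for which both day 8 arrays lay below (all genes 27.4%). By role, the order of arrays held for 4 of 6 measured alpha subunits, 7 of 7 constitutive beta subunits, 9 of 9 base subunits, 8 of 8 lid subunits and 3 of 3 base assembly chaperones. It held for 2 of 3 immunoproteasome subunits and 3 of 4 activators.

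**Figure D1:**
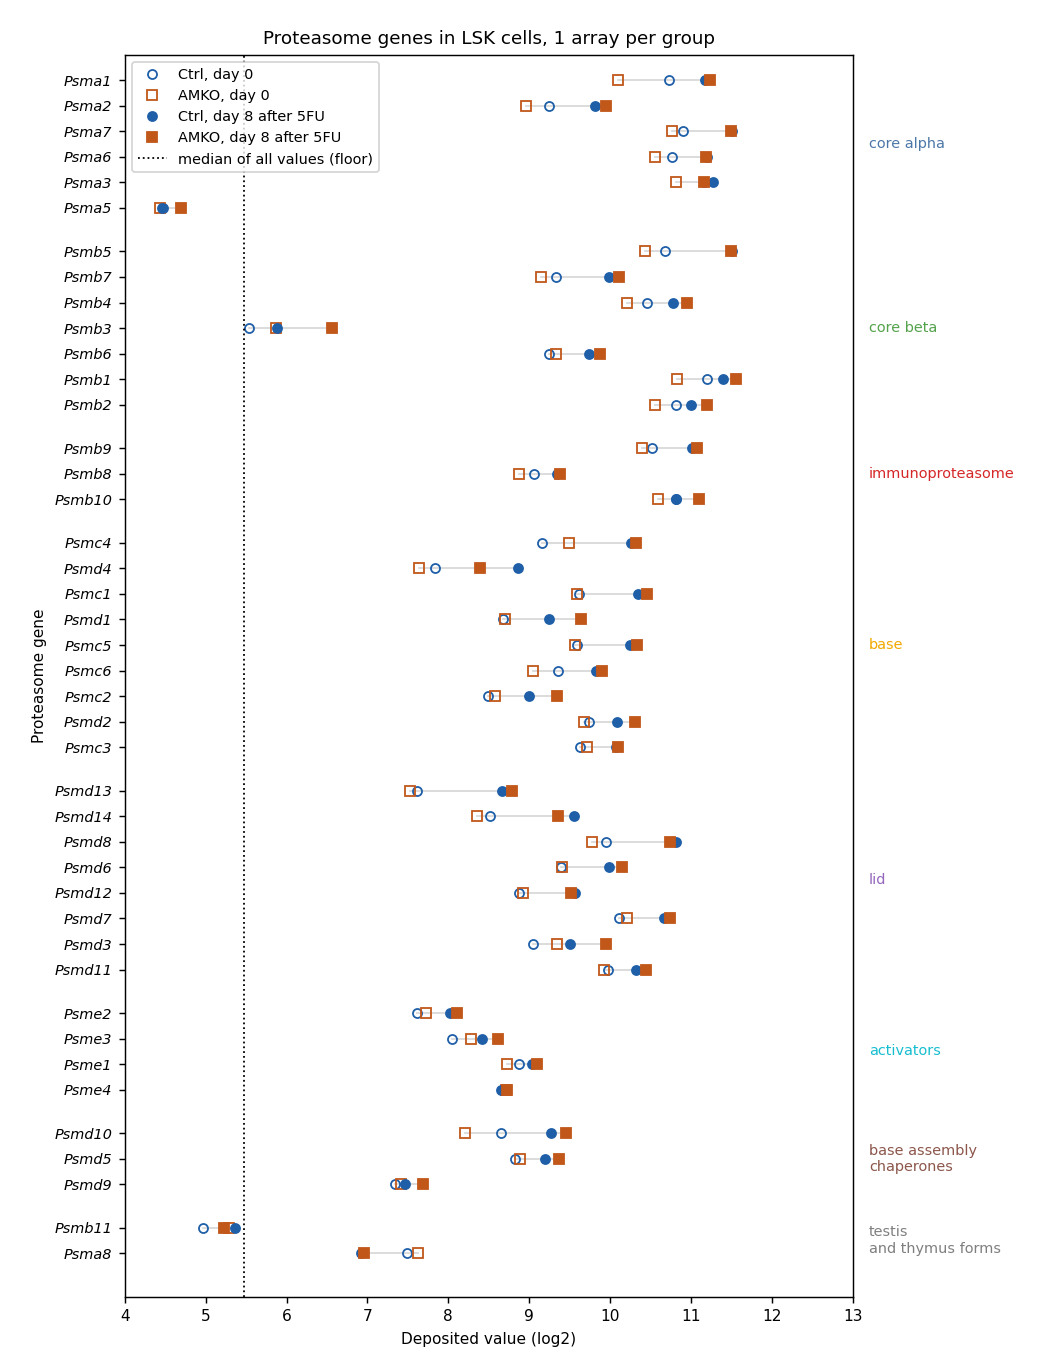
Each row is 1 proteasome gene and each mark 1 array, on the deposited log2 scale; open marks are day 0, filled marks day 8 after 5FU, circles Ctrl and squares AMKO, and the dotted line is the floor of 5.475. In 36 of 40 tested rows both filled marks lie to the right of both open marks, and the row of Psma8 runs the other way.

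An additive limma fit of genotype and treatment on the 4 arrays called 0 of 40 members and 0 of 12959 genes for the averaged 5FU effect at an adjusted p of 0.05. This fit has 1 residual degree of freedom and takes the difference between the genotypes' responses as error. The members' adjusted p (limma, Benjamini-Hochberg over all tested genes) ranged from 0.062 to 0.966, and the smallest of any gene, shared by several genes, was 0.0594. Unadjusted p under 0.05 was reached by 32 of 40 members (80.0%), beside 29.3% of all tested genes. The count of calls depended on the scaling, the floor and the estimation. Limma called 9 members after quantile normalization and 5 with each array centred on its median. It called 16 with the floor at the 75th percentile and 13 with robust estimation. How many of all tested genes were called under these settings is not given here, so these counts cannot be set beside a share of all genes. Quantile normalization also lowered the counts at 1.5-fold to 8 in Ctrl (all genes 10.6%) and 16 in AMKO (all genes 13.6%).

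The responses of the genotypes resembled each other gene by gene. Across the 40 members, the 5FU differences of Ctrl and AMKO, which share no array, had a Pearson correlation of 0.785 and a Spearman correlation of 0.748, beside 0.604 and 0.643 across all tested genes. Genes are not independent replicates, and all differences come from the same 4 arrays, so no p is given. The difference was larger in AMKO for 31 of 40 members (77.5%), beside 56.5% of all tested genes, and the median excess was 0.17, beside 0.06. The same held for 44 of 54 cytosolic ribosomal protein genes (81.5%, median 0.26), 60 of 70 mitochondrial ones (85.7%, median 0.285) and 69.0% of all tested genes with a mean of 10 or more (median 0.14).

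**Figure D2:**
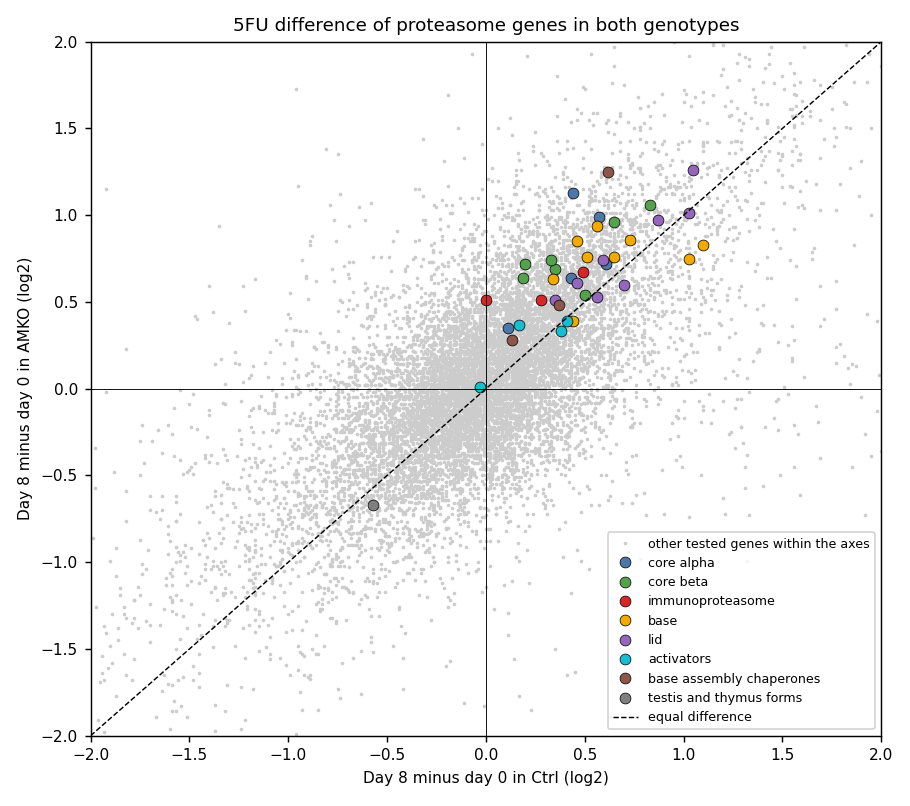
Each coloured point is 1 tested proteasome gene, grey points are the other tested genes within the axes; the horizontal axis is the day 8 minus day 0 difference in Ctrl and the vertical axis that in AMKO, both log2, and the dashed line marks equal differences. All but 2 of the 40 coloured points have a positive AMKO difference with a Ctrl difference at or above 0, and 31 lie above the dashed line.

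The alpha rings form the outer gate of the core particle. Their 5 tested genes had median 5FU differences of 0.44 in Ctrl and 0.72 in AMKO. Of these genes, 1 in Ctrl (all genes 11.7%) and 4 in AMKO (all genes 16.2%) passed 1.5-fold. Psma1 had the largest averaged difference of these. It read 10.73 in Ctrl and 10.10 in AMKO at day 0, and 11.17 and 11.23 at day 8, so the arrays of day 8 nearly coincided and the differences of 0.44 and 1.13 parted at day 0. The limma estimate was 0.785 with a standard error of 0.206 and an adjusted p of 0.114.

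Psma2 was higher by 0.57 (Ctrl) and 0.99 (AMKO). Psma7 was higher by 0.61 and 0.72, and Psma6 by 0.43 and 0.64. Psma3 had the smallest difference of the tested alpha genes, with 11.16 and 10.81 at day 0 and 11.27 and 11.16 at day 8. The Ctrl day 0 and AMKO day 8 values of Psma3 were equal, so its groups touched. Psma5 read 4.47 and 4.44 at day 0 and 4.46 and 4.69 at day 8, all under the floor, so its differences of -0.01 and 0.25 are those of a dim probe set.

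The beta rings enclose the chamber in which proteins are cut. All 7 constitutive beta genes were higher at day 8 in both genotypes, with medians of 0.35 (Ctrl) and 0.72 (AMKO). Past 1.5-fold were 2 in Ctrl (all genes 11.7%) and 6 in AMKO (all genes 16.2%). The 4 structural genes, which carry no cutting site, had medians of 0.265 and 0.705. Psmb4, which had the largest averaged difference of these, read 10.45 and 10.21 at day 0 and 10.78 and 10.95 at day 8. Psmb2, with the smallest, read 10.81 and 10.56 at day 0 and 11.00 and 11.20 at day 8. Both genes kept the day 8 arrays above the day 0 arrays, and in both the AMKO difference was the larger one (0.74 against 0.33 for Psmb4, 0.64 against 0.19 for Psmb2).

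Psmb1 was higher by 0.20 (Ctrl) and 0.72 (AMKO), and Psmb3 by 0.35 and 0.69. Psmb3 was close to the floor, with 5.53 on the Ctrl day 0 array, and its values are those of a weak probe set.

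The 3 constitutive catalytic genes had median differences of 0.65 (Ctrl) and 0.96 (AMKO). Psmb5, the chymotrypsin-like subunit, read 10.68 and 10.43 at day 0 and 11.51 and 11.49 at day 8. Its day 8 arrays lay well above both day 0 arrays, 1.78-fold in Ctrl and 2.08-fold in AMKO, with a limma estimate of 0.945 (standard error 0.119, adjusted p 0.0628).

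Psmb7, the trypsin-like subunit, read 9.33 and 9.15 at day 0 and 9.98 and 10.11 at day 8, or 1.57-fold and 1.95-fold higher. Psmb6, the caspase-like subunit, read 9.24 and 9.33 at day 0 and 9.74 and 9.87 at day 8, or 1.41-fold and 1.45-fold higher. Psmb6 thus had the smallest difference of the 3, and its genotypes the most similar ones.

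The immunoproteasome genes differed less than their constitutive partners in both genotypes for 2 of 3 pairs. Their medians were 0.28 (Ctrl) and 0.51 (AMKO). At least 1.5-fold higher were 0 of 3 in Ctrl (all genes 11.7%) and 1 of 3 in AMKO (all genes 16.2%). Psmb8, which takes the place of Psmb5, read 9.06 and 8.87 at day 0 and 9.34 and 9.38 at day 8. The difference of Psmb5 exceeded that of Psmb8 by 0.55 in each genotype.

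Psmb10, which takes the place of Psmb7, read 10.81 and 10.59 at day 0 and 10.81 and 11.10 at day 8. It was the same on both Ctrl arrays and 1.42-fold higher in AMKO, and after quantile normalization its Ctrl difference was -0.138 and its AMKO difference 0.272. The difference of Psmb7 exceeded that of Psmb10 by 0.65 in Ctrl and 0.45 in AMKO. Psmb9, which takes the place of Psmb6, read 10.52 and 10.40 at day 0 and 11.01 and 11.07 at day 8. This pair behaved alike, with the difference of Psmb6 minus that of Psmb9 at 0.01 in Ctrl and -0.13 in AMKO. With 1 array a group these gaps have no test.

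**Figure D3:**
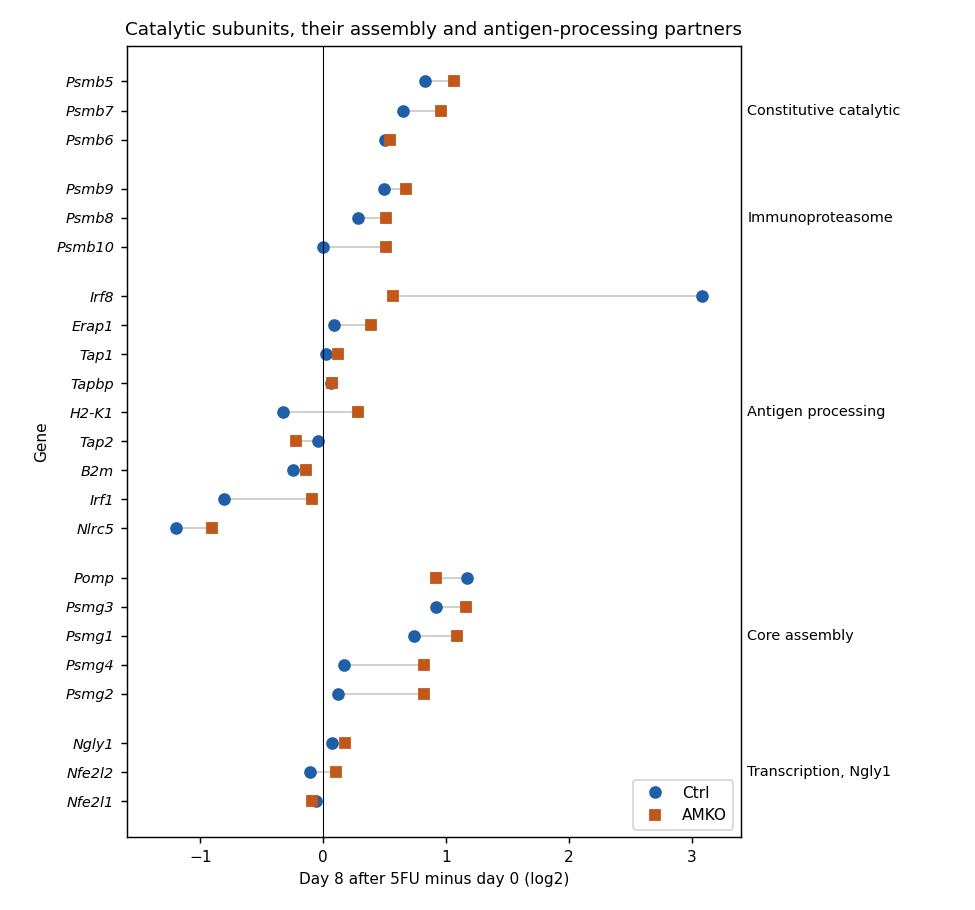
The horizontal axis is the day 8 minus day 0 difference (log2) in Ctrl (circles) and AMKO (squares) for the catalytic subunits, antigen-processing genes, core assembly factors and the transcription group, 1 gene a row. Psmb5 and the assembly factors Pomp, Psmg3 and Psmg1 lie far to the right of 0 in both genotypes, the transcription group lies near 0, and Irf8 is 3.08 in Ctrl against 0.57 in AMKO.

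The base of the regulatory particle threads unfolded proteins into the core. All 9 of its genes were higher at day 8 in both genotypes, with medians of 0.56 and 0.76. Past 1.5-fold were 4 in Ctrl (all genes 11.7%) and 8 in AMKO (all genes 16.2%). The ATPase gene Psmc4 had the largest averaged difference of its class, with 9.16 and 9.49 at day 0 and 10.26 and 10.32 at day 8. It was 2.14-fold higher in Ctrl and 1.78-fold in AMKO, and so among the few members whose difference was larger in Ctrl. Psmc3, with the smallest, read 9.63 and 9.71 at day 0 and 10.07 and 10.10 at day 8.

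The other ATPase genes lay between these. Psmc1 was higher by 0.73 (Ctrl) and 0.86 (AMKO), Psmc5 by 0.65 and 0.76, Psmc6 by 0.46 and 0.85, and Psmc2 by 0.51 and 0.76. A second, dimmer probe set of Psmc2 gave -0.01 and 0.37, so the Ctrl difference of that gene depends on the probe set.

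Of the non-ATPase base genes, Psmd4, a receptor for ubiquitin chains, had the largest averaged difference. It read 7.83 and 7.64 at day 0 and 8.86 and 8.39 at day 8, 2.04-fold higher in Ctrl and 1.68-fold in AMKO. Psmd2, a scaffold, had the smallest, with 9.74 and 9.68 at day 0 and 10.08 and 10.31 at day 8. The scaffold gene Psmd1 was higher by 0.56 (Ctrl) and 0.94 (AMKO).

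The lid deubiquitinates substrates before they enter. Among the alpha, beta, base and lid groups, its medians differed least between the genotypes. All 8 genes were higher at day 8 in both genotypes, with medians of 0.645 (Ctrl) and 0.675 (AMKO). Past 1.5-fold were 5 in Ctrl (all genes 11.7%) and 6 in AMKO (all genes 16.2%). Psmd13 had the largest averaged difference of all tested members. It read 7.61 and 7.53 at day 0 and 8.66 and 8.79 at day 8, or 2.07-fold and 2.39-fold higher, with a limma estimate of 1.155 (standard error 0.141, adjusted p 0.0628).

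Psmd14, the lid's deubiquitinating enzyme, was higher by 1.03 (Ctrl) and 1.01 (AMKO), which gave it the smallest adjusted p of the members in the limma fit (0.062, standard error 0.114). Psmd8 was higher by 0.87 and 0.97, Psmd12 by 0.70 and 0.60, and Psmd6 by 0.59 and 0.74. Of these, Psmd12 and Psmd14 had the larger difference in Ctrl.

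Psmd7, the inactive partner of Psmd14, was higher by 0.56 and 0.53, and Psmd3 by 0.46 and 0.61. Psmd11 had the smallest averaged difference of the lid, with 9.97 and 9.93 at day 0 and 10.32 and 10.44 at day 8.

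The base assembly chaperones hold ATPases during assembly and leave the finished particle. Their medians were 0.37 in Ctrl and 0.48 in AMKO. In each genotype 1 of 3 was past 1.5-fold (all genes 11.7% in Ctrl and 16.2% in AMKO). That gene was Psmd10, known as gankyrin, which read 8.65 and 8.20 at day 0 and 9.27 and 9.45 at day 8. It was 1.54-fold higher in Ctrl and 2.38-fold in AMKO, and its AMKO day 0 value was the lowest of the 4. Psmd9, with the smallest difference, read 7.34 and 7.41 at day 0 and 7.47 and 7.69 at day 8, and Psmd5 was higher by 0.37 and 0.48.

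The activators open the core without the base. None of the 4 was past 1.5-fold higher in Ctrl (all genes 11.7%) or AMKO (all genes 16.2%). Their medians were 0.275 and 0.35. Psme1 and Psme2 form the interferon-induced ring that acts with the immunoproteasome. Psme1 read 8.87 and 8.73 at day 0 and 9.04 and 9.10 at day 8, and Psme2 read 7.61 and 7.72 at day 0 and 8.02 and 8.11 at day 8. Both were higher at day 8, Psme2 by similar amounts in both genotypes (0.41 and 0.39).

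Psme3, the nuclear activator, read 8.04 and 8.28 at day 0 and 8.42 and 8.61 at day 8. Psme4, a large single-chain activator, read 8.68 and 8.71 at day 0 and 8.65 and 8.72 at day 8. The 4 arrays of Psme4 thus spanned 0.07, and its limma estimate was -0.01 (standard error 0.118, adjusted p 0.966).

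The tissue-restricted forms stood apart. Psma8, the testis alpha form, read 7.49 and 7.63 at day 0 and 6.92 and 6.96 at day 8, or 0.674-fold in Ctrl and 0.629-fold in AMKO. It was the only tested member with both day 8 arrays below both day 0 arrays. Psmb11, the thymus beta form, read 4.97 and 5.29 at day 0 and 5.36 and 5.23 at day 8, all under the floor. Psmc3ip, given apart, read 6.90 and 6.97 at day 0 and 7.68 and 8.22 at day 8. Counting it with the members would give 14 and 27 genes past 1.5-fold.

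The second question of the design is how AMKO cells differ from Ctrl cells. At day 0, members of the core particle were lower in AMKO than in Ctrl, while the regulatory particle lay near 0. The 12 tested core genes had a median difference (AMKO minus Ctrl) of -0.245, with 10 of 12 below 0. The 17 genes of base and lid had a median of -0.02, with 9 below and 8 above 0. Over all 40 members the median was -0.07 and 24 lay below 0. All tested genes had a median of 0.00, and 6475 of 12959 lay below 0. Lower values at day 0 were not particular to the core. The 54 cytosolic ribosomal protein genes had a median of -0.155 with 45 below 0, and the 70 mitochondrial ones a median of -0.085 with 48 below 0. The sizes were small. Psma1, at -0.63, was the 1 member at least 1.5-fold lower (all genes 3.46%), and 0 were 1.5-fold higher (all genes 1.97%).

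Among core genes, the differences at day 0 were -0.37 for Psmb1, -0.35 for Psma3, -0.28 for Psma2, -0.25 for both Psmb2 and Psmb5, and -0.24 for Psmb4. They were -0.22 for Psma6, -0.18 for Psmb7 and -0.13 for Psma7. Psmb6 (0.09) and Psmb3 (0.34) lay above 0. The immunoproteasome genes lay between -0.22 and -0.12.

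Bright genes as a whole were slightly lower on the AMKO day 0 array. The 714 tested genes with a mean of 10 or more had a median of -0.06 there, with 442 below 0. The 8 core genes of that brightness had a median of -0.25, with 8 of 8 below 0. The 3 regulatory particle genes of that brightness had a median of -0.04. The core alpha median was -0.28 as deposited, -0.245 after quantile normalization and -0.36 with each array centred on its median, and the core beta median was -0.24, -0.175 and -0.32. The base and lid medians turned to 0.012 and 0.029 after quantile normalization. The Ctrl day 0 array of this comparison is the one with high muscle markers, and their part in it was not tested.

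In the base, Psmc6 was lowest in AMKO at day 0 (-0.31) and Psmc4 highest (0.33). In the lid, values ran from -0.18 for Psmd8 to 0.29 for Psmd3. Psmd10, the assembly chaperone, was at -0.45.

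At day 8 the core genes as a group were not lower in AMKO. The 12 core genes had a median of 0.13 and the 17 regulatory particle genes one of 0.09, with 32 of 40 members above 0 and a median of 0.10. All tested genes had a median of 0.06 with 59.3% above 0. The 8 core genes with a mean of 10 or more had a median of 0.025, with 4 above and 4 below 0. All tested genes of that brightness had a median of 0.06. The 5 tested core alpha genes had a median of -0.01 and the 7 core beta genes one of 0.15. Psmb3, the weak probe set, was the 1 member at least 1.5-fold higher (0.68, all genes 4.06%), and 0 were 1.5-fold lower (all genes 4.53%). Lower in AMKO at day 0 and higher at day 8, by at least 0.1 each, were 7 of 40 members (17.5%), close to the 15.8% of all tested genes. Psmd4 was the lowest at -0.47, and Psmd3 (0.44) and Psmd1 (0.40) followed Psmb3 at the top.

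Psmd3 was thus higher in AMKO at both times, as was Psmb3. These were the 2 of 40 members with an unadjusted p under 0.05 for the averaged AMKO effect in the limma fit (all genes 3.3%). Limma called 0 members and 0 genes for that effect after adjustment. Across the 40 members the AMKO differences at day 0 and day 8 had a Pearson correlation of 0.383 and a Spearman correlation of 0.247, beside 0.0207 and 0.0266 across all tested genes.

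**Figure D4:**
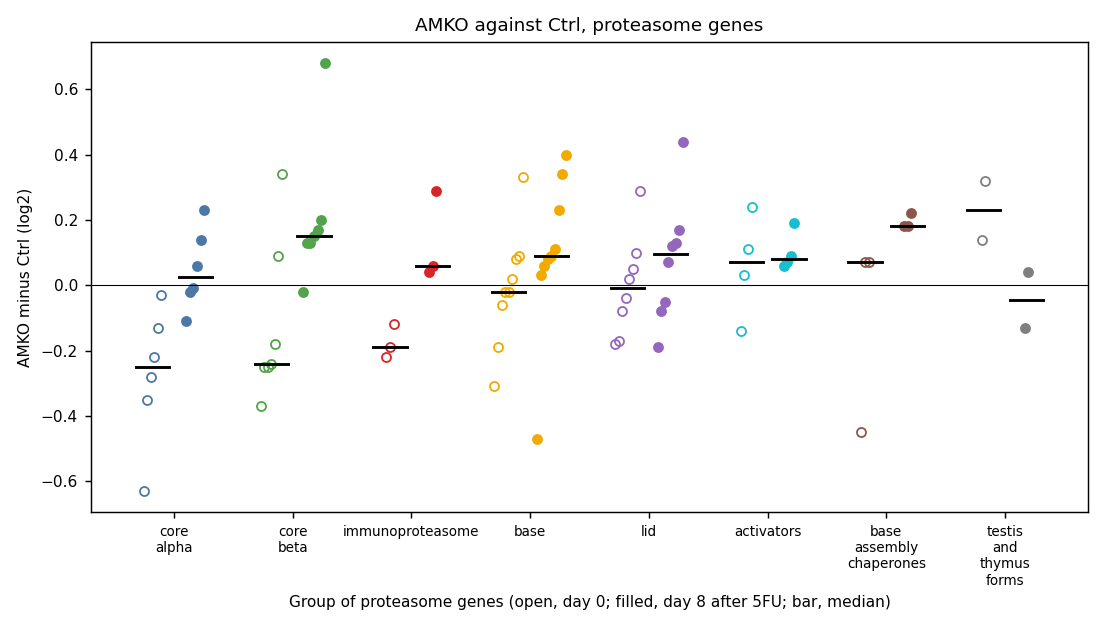
Each point is the AMKO minus Ctrl difference (log2) of 1 measured proteasome gene, by group, open at day 0 and filled at day 8 after 5FU, and bars are medians over the measured genes. At day 0 the medians of core alpha, core beta and immunoproteasome genes lie at -0.25, -0.24 and -0.19, while those of base and lid lie at -0.02 and -0.01.

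Other genes of the pathway were taken from a fixed list of 43, of which 32 were measured. The core assembly factors had the highest medians of its 6 groups, 0.74 in Ctrl and 0.92 in AMKO, with 3 and 5 of 5 genes past 1.5-fold (all genes 11.7% and 16.2%). Pomp, the maturation factor of the beta rings, read 9.28 and 9.46 at day 0 and 10.45 and 10.38 at day 8, or 2.25-fold and 1.89-fold higher. Psmg3 was higher by 0.92 and 1.16. Psmg2 (0.12 and 0.82) and Psmg4 (0.17 and 0.82) had smaller differences in Ctrl than in AMKO.

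Of the 9 regulatory particle partners outside the symbol rule, 7 were measured, with medians of 0.46 and 0.35. Past 1.5-fold higher were 1 in Ctrl (all genes 11.7%) and 3 in AMKO (all genes 16.2%). Uchl5, a deubiquitinating enzyme bound to the regulatory particle, read 9.75 and 9.67 at day 0 and 11.04 and 10.97 at day 8. It was 2.45-fold and 2.46-fold higher, with an adjusted p of 0.0594 (limma), a value that other genes shared. Sem1, a small lid subunit, was higher by 0.46 and 0.73. Ecpas, which binds both core and cap, was at 0.09 and 0.07, and the inhibitor Psmf1 at 0.30 and 0.13.

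The transcription group lay near 0. Nfe2l1, the inducer of subunit genes, read 8.76 and 8.82 at day 0 and 8.70 and 8.73 at day 8, a span of 0.12 over the 4 arrays. Nfe2l2 was at -0.11 in Ctrl and 0.10 in AMKO, and Ngly1, the enzyme that activates Nfe2l1 after translation, at 0.07 and 0.18. These are RNA levels, and Nfe2l1 is known to be controlled mainly as a protein. Of the 6 ubiquitin and E1 genes, Uba6 was measured, at 0.17 and 0.76.

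Antigen-processing partners of the immunoproteasome showed medians of -0.04 (Ctrl) and 0.07 (AMKO) over the 9 of 11 measured. Irf8, a transcription factor of monocyte and B lineages, read 5.38 and 5.72 at day 0, 8.46 in Ctrl at day 8 and 6.29 in AMKO at day 8. Its high value stood on the array with the high neutrophil, monocyte and B-lineage markers, and their part in it was not tested. Erap1, which trims peptides, was at 0.09 and 0.39.

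Nlrc5, the transactivator of MHC class I genes, was lower at day 8, with 8.94 on both day 0 arrays, 7.74 in Ctrl and 8.03 in AMKO at day 8. Irf1, an interferon-response factor, was at -0.81 in Ctrl and -0.09 in AMKO. Tap1 (0.02 and 0.12), the peptide transporter encoded beside Psmb9, and B2m (-0.25 and -0.14), the light chain of MHC class I, were chosen for mention after their values were seen.

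For comparison, the same counts were made for the ribosomal proteins. The 54 tested cytosolic ribosomal protein genes had median 5FU differences of 0.045 in Ctrl and 0.325 in AMKO. Past 1.5-fold higher were 6 in Ctrl (11.1%, all genes 11.7%) and 12 in AMKO (22.2%, all genes 16.2%). The 70 mitochondrial ribosomal protein genes had medians of 0.38 and 0.675, with 15 (21.4%) and 40 (57.1%) past 1.5-fold higher. The mitochondrial medians lay close to the 0.46 and 0.68 of the proteasome genes, so a difference of this size was not particular to proteasome genes on these arrays. The 4138 tested genes with a mean of 8 to 10 had medians of 0.08 and 0.16, and the 23 proteasome genes of that brightness medians of 0.56 and 0.75.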

How the data were processed

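The authors deposited 1 value per probe set and array, read here as log2 because values lay between 1.99 and 13.43. For background correction and normalization, the method is not given in the sources used here. Values were used without further scaling. Per the labels' protocols, RNA was extracted on columns and turned into biotinylated cRNA for Affymetrix arrays. Of 34472 probe sets, the platform annotation named 23521 for 1 gene, 1814 for several and 9137 for none; 23328 symbols were updated through RefSeq (GRCm38.p6). A gene was read from its single-gene probe set with the highest mean and tested when that mean reached 5.475.

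Comparisons of 1 array with 1 array have no test and are given as log2 differences beside all tested genes. Averaged effects come from limma 3.58.1, run in R 4.3.3 (lmFit and eBayes with additive genotype and treatment, intensity trend, prior degrees of freedom 2.74), after tests on simulated data. With 1 array per group, the number of arrays limits the precision.

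Genes were named by a rule: 4-array values for catalytic, tissue-restricted and activator genes and for the members of each other class with the largest and smallest averaged 5FU difference, differences for other members, and the 2 highest and 2 lowest of each pathway group. Members, lists and tests were chosen with earlier results of these data known. The protein comparison of the catalytic pairs is not reported here. Alternatives were scalings, floors, folds, probe set choice, fit settings and leaving out arrays.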

Additional observations from a re-analysis of the deposited data

Results flagged for a closer look

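These genes went opposite ways in the 2 settings compared, by at least 0.1 (log2) in each; with 1 array per group the difference was not tested. For AMKO minus Ctrl, 7 proteasome genes were lower at day 0 and higher at day 8. These were 17.5% of the 40 tested members, beside 15.8% of all tested genes. The values at day 0 and day 8 were -0.28 and 0.14 for Psma2, -0.37 and 0.15 for Psmb1, -0.25 and 0.20 for Psmb2, and -0.24 and 0.17 for Psmb4. They were -0.18 and 0.13 for Psmb7, -0.22 and 0.29 for Psmb10, and -0.45 and 0.18 for the assembly chaperone Psmd10. Psmb11, under the floor on all arrays, went from 0.32 to -0.13.

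Of the 32 other pathway genes measured, the assembly factors Psmg1 (-0.16 and 0.19), Psmg2 (-0.16 and 0.54) and Psmg4 (-0.28 and 0.37) followed the same order. So did Sem1 (-0.16 and 0.11), the E1 enzyme Uba6 (-0.35 and 0.24) and Vcp (-0.22 and 0.45). Over all tested genes, 15.8% followed this order. Irf8 went the other way, with 0.34 at day 0 and -2.17 at day 8. In the 5FU comparison, H2-K1 was at -0.33 in Ctrl and 0.28 in AMKO, and Nfe2l2 at -0.11 and 0.10. The 2 Ctrl arrays in these differences are the ones with high muscle markers (day 0) and high neutrophil and B-lineage markers (day 8), and the part of those markers was not tested.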

How the results depend on the processing

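The direction of the 5FU medians held under every scaling, floor and probe set choice run. The other folds and fit settings change only counts and calls, so they cannot bear on a median. With no replicates, a median or a single gene counted as moved past 0.1 (log2). Quantile normalization gave 8 members past 1.5-fold higher in Ctrl (all genes 10.6%) and 16 in AMKO (all genes 13.6%) with a median of 0.487. It also gave 0 lower in AMKO at day 0 (all genes 3.46%) and 9 limma calls. Centring on the array median gave an AMKO median of 0.79, 0 lower in AMKO after 5FU (all genes 7.44%) and 5 calls. A floor at the 75th percentile gave 0 lower in AMKO after 5FU (all genes 8.93%) and 0 higher in AMKO at day 8 (all genes 2.99%). That floor gave 16 calls, and robust estimation gave 13. The calls among all tested genes under these settings are not given here. At 2-fold, 4 were higher in Ctrl (all genes 4.61%) and 5 in AMKO (all genes 4.98%) after 5FU. At that fold, 0 were lower in AMKO after 5FU (all genes 3.52%). None was lower in AMKO at day 0 (all genes 0.656%) or higher in AMKO at day 8 (all genes 0.694%). At a lower threshold (a difference of 0.322), 31 were higher (all genes 24.2%) and 1 lower (22.4%) in Ctrl after 5FU, 2 higher (all genes 9.98%) and 4 lower (12.5%) in AMKO at day 0, and 4 higher (16.2%) and 1 lower (10.7%) in AMKO at day 8. The day 0 genotype median reversed for base (0.012) and lid (0.029) after quantile normalization and for activators (-0.01) after centring, and the day 8 core alpha median (0.025) with no floor, which adds Psma5. The cause of the other moves was not tested. Of group medians under alternatives, 125 stayed, 15 moved and 4 reversed; of single genes, 397 stayed and 107 moved. The averaged 5FU median of 0.54 ranged from 0.487 to 0.632 when 1 array was left out. Including Psmc3ip, an alternative chosen after seeing the data, moved no count by 1.5 times. Of all genes past 1.5-fold, 61.4% were higher after 5FU in AMKO as deposited and 73.9% after centring, which moved the median of all genes from 0.05 to 0.16. For AMKO against Ctrl at day 0 these shares were 36.2% and 19.5%. No paired analysis was possible because each group has 1 array and replicate 1 of each group shares only a number. Array number and unstated normalization limit every value here.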

Other observations

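The shuttle proteins and the unfoldase that bring ubiquitinated proteins to the proteasome were measured for 7 of 8 listed genes. Their median 5FU differences were 0.24 in Ctrl and 0.38 in AMKO. Past 1.5-fold higher were 1 in Ctrl (all genes 11.7%) and 2 in AMKO (all genes 16.2%). Nploc4, a cofactor of the unfoldase, had the largest averaged difference, 0.65 in each genotype. Vcp, the unfoldase itself, read 10.19 in Ctrl and 9.97 in AMKO at day 0 and 10.43 and 10.88 at day 8. The smallest averaged differences were those of the ubiquilins Ubqln4 (-0.18 and -0.24) and Ubqln2 (-0.33 and 0.03).

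At day 8 this group had a median AMKO minus Ctrl difference of 0.31, beside -0.01 at day 0 and 0.06 over all tested genes at day 8. Vcp (0.45), Ubqln1 (0.35), Ubqln2 (0.32) and Rad23b (0.31) were higher in AMKO at day 8, while Nploc4 (-0.01), Ubqln4 (-0.01) and Ufd1 (-0.07) were not. These genes were picked out after their values were seen. None was past 1.5-fold between the genotypes, and the Ctrl day 8 array of the comparison is the one with high neutrophil and B-lineage markers, whose part in it was not tested.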
